A study of Mus musculus with 14 samples.

Results

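The 46 genes examined here encode the enzymes of glycolysis, the lactate step, pyruvate entry into the mitochondrion and the citric acid cycle. They were selected by gene name from the P0 islet count table and occupy 47 of its 54532 rows, since Aldoa is listed under 2 identifiers. All 47 rows were among the 18732 rows that had enough counts to be tested. Their RNA was measured by poly(A) RNA-seq in pancreatic islets of wild-type C57BL/6JRj mice at postnatal day 0 (P0), in 7 libraries treated with 10 µM adjudin and 7 libraries treated with the vehicle DMSO. Adjudin is a small molecule that was studied for its effect on beta cell maturation. All islets were handpicked, left to recover overnight and then cultured for 1 day in medium containing 11 mM glucose with either agent. Each library was made from islets pooled from several newborn pups of either sex, so a value is an average over animals and over every cell type in the pick. The question here is whether the RNA of central carbon metabolism differed between adjudin-treated and DMSO-treated neonatal islets.

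Beta cells couple insulin release to the rate at which they oxidise glucose. Glucose is phosphorylated by a hexokinase, split and oxidised to pyruvate by glycolysis, and the pyruvate is passed into the citric acid cycle, whose reduced cofactors feed the respiratory chain and raise ATP. Mature beta cells keep the high-affinity hexokinases Hk1 and Hk2, the lactate dehydrogenase gene Ldha and the lactate and pyruvate transporter Slc16a1 at low levels, whereas most other cell types express them.

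The libraries held between 26475749 and 36900026 counts, apart from DMSO replicate 7 with 108865228. The summed level of 8 beta cell markers ranged from 1315 to 16885 CPM (read counts relative to the total of their library) in the adjudin-treated libraries and from 26.9 to 18034 CPM in the DMSO-treated libraries. The lowest value was that of DMSO replicate 5, where Ins2 was at 2.27 CPM, so the markers that define beta cells were nearly absent there, and its partner Adjudin replicate 5 had the lowest beta cell sum of the adjudin-treated libraries. The sum of 7 mesenchymal markers was 17145 to 31017 CPM with adjudin and 17052 to 33633 CPM with DMSO, and it was higher with adjudin in only 1 of 7 same-numbered pairs. The sum of 7 acinar markers was higher with adjudin in 6 of 7 pairs, with a median of 84.4 CPM (17.7 to 231) with adjudin against 4.95 CPM (1.23 to 221) with DMSO. The sums of 7 ductal markers (median 995 CPM with adjudin, 684 CPM with DMSO) and 2 delta cell markers (199 CPM with adjudin, 163 CPM with DMSO) were also higher with adjudin in 6 of 7 pairs. So was the sum of 6 hepatocyte markers, at a median of only 3.63 CPM with adjudin and 2.65 CPM with DMSO. Of the hepatocyte markers, 3 had no count in at least 1 library. The same was true of 4 acinar and 3 erythroid markers. The beta cell sum was higher with adjudin in 5 of 7 pairs, and the alpha cell and endothelial sums in 4. The macrophage and erythroid sums were higher with adjudin in 3 pairs, and the Schwann cell sum in 2. Adjudin replicate 3 held 552 CPM of 6 hepatocyte markers, whereas the other adjudin-treated libraries reached at most 6.24 CPM and the DMSO-treated libraries 6.11 CPM. In bulk islets, fewer cells of a type and less RNA per cell cannot be told apart.

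None of the 47 rows passed an adjusted p of 0.05 in edgeR's quasi-likelihood test, where 1 of all 18732 genes did (0.00534%). No row reached an unadjusted p of 0.05 either, against 424 of all genes (2.26%, made up of 1.25% higher and 1.01% lower with adjudin). The CPM of the treatments overlapped for every row, as they did for all but 0.0214% of the genes tested. DESeq2 also called 0 of the 47 rows, against 3 of 37974 genes (0.0079%). It counted 0 rows at an unadjusted p of 0.05, against 2.17% of 38028 genes with a count. Those genes include many with too few counts for edgeR's test. The median log2 fold change of adjudin over DMSO was 0.03 for the 47 rows and −0.01 for all genes tested, and 29 of the 47 rows had a value above 0, against 45.3% of all genes. That count was 31 when the libraries were scaled by relative log expression and 33 when they were scaled by their totals. The median of all genes moved too, from −0.013 to −0.010 with relative log expression and 0.004 with totals. The share of 45.3% belongs to the main scaling alone, so 31 and 33 cannot be set against it.

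Most of these genes were measured precisely enough to bound a change. The 95% interval of the fold change lay within 1.5-fold in either direction for 41 of the 47 rows, against 62.2% of all genes tested. The 6 exceptions were the second Aldoa row, Aldoc, Fbp1, Fbp2, Pcx and Me1. The median standard error (SE) of the log2 fold change was 0.12 for the 47 rows and 0.16 for all genes. The rows were not matched to all genes in level, and precision depends on the number of counts. The interval says how large a difference could have been missed and does not show that the treatments were equal.

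**Figure D1:**
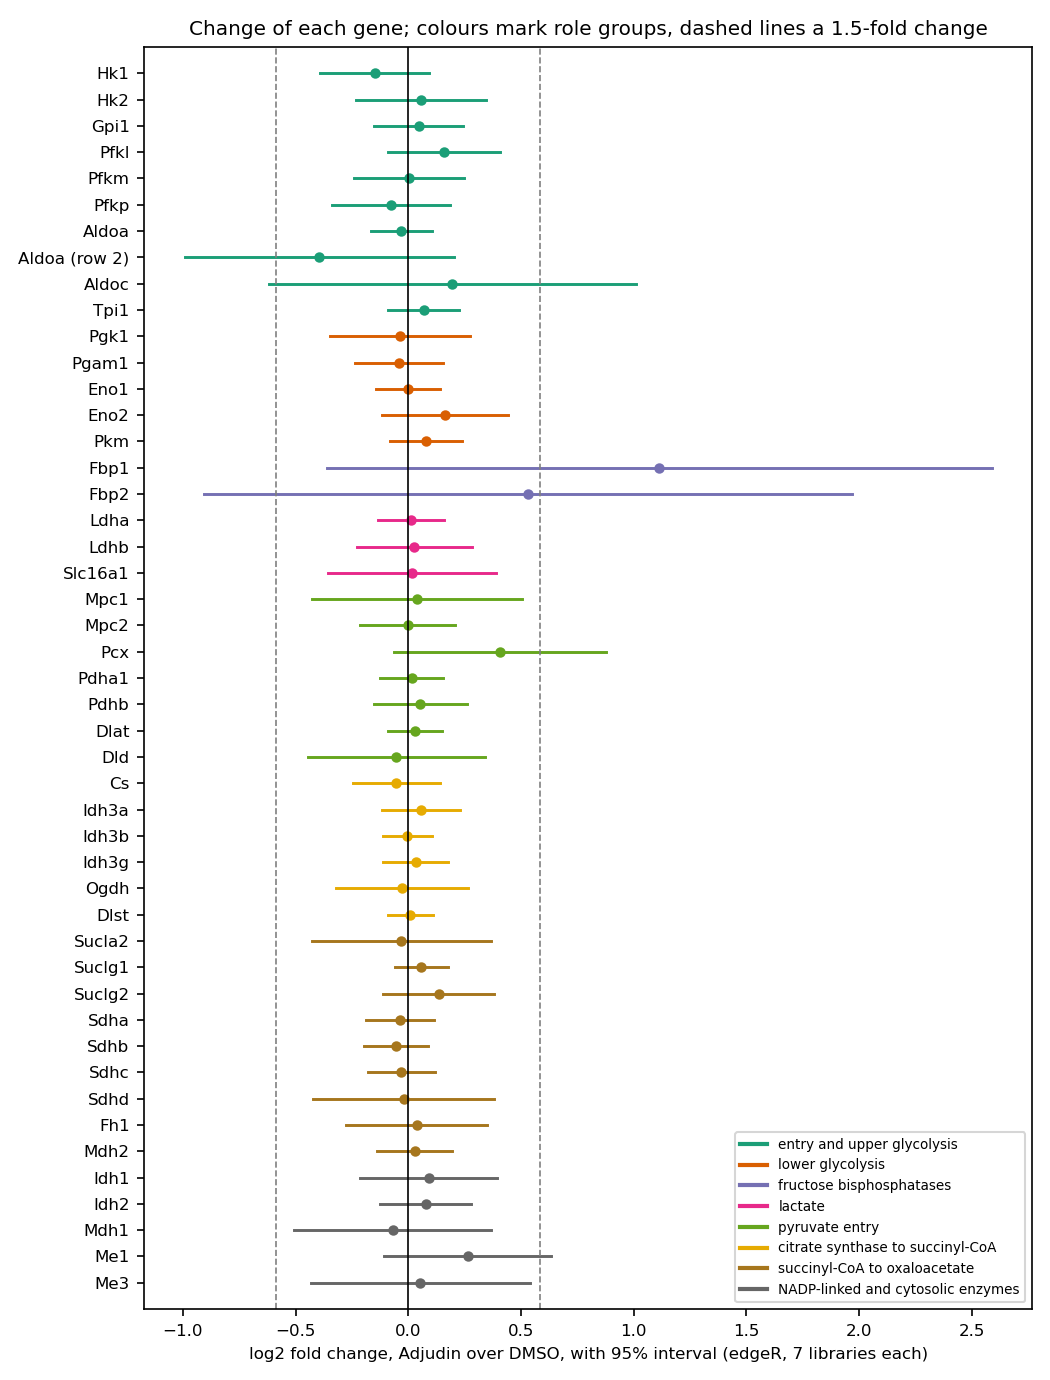
Log2 fold change of adjudin over DMSO (x axis) for the 47 rows (y axis), with points for edgeR's estimate over 7 libraries per treatment, bars for its 95% interval and colours for the role in the pathway. The intervals of 41 rows lie between the dashed lines that mark a 1.5-fold change, and every interval includes 0.

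Libraries that share a replicate number were labelled with the same batch, so the treatments were also compared within the 7 pairs. With the replicate number as a block, edgeR called 0 of the 47 rows and 0 of all genes at an adjusted p of 0.05. At an unadjusted p of 0.05 it counted 4 rows, all higher with adjudin, against 1055 of all genes (5.63%), of which 609 were higher (3.25%) and 446 lower (2.38%). The 4 rows were Fbp1, Pcx, Me1 and Suclg2. DESeq2 with the same block called 1 row, Fbp1, which was higher with adjudin. It called 113 of 18122 genes (0.624%), 104 of them higher (0.574%). At an unadjusted p of 0.05 it counted 3 rows, against 3.67% of 38028 genes with a count. That share covers many sparse genes that edgeR left out, so it cannot be set beside the 5.63% of edgeR. The median SE of the 47 rows was 0.07 with the block.

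The levels of the pathway spanned more than 3 orders of magnitude per unit of length. The highest level, in RPKM (read counts relative to gene length and library total), was that of Pkm, the pyruvate kinase gene, at 144 ± 13.5 RPKM with adjudin and 135 ± 7.51 RPKM with DMSO (SD, n = 7 each). Mdh1, the cytosolic malate dehydrogenase gene, followed at 132 ± 30.0 RPKM with adjudin and 137 ± 44.2 RPKM with DMSO, and Ldha at 128 ± 10.5 RPKM with adjudin and 125 ± 4.31 RPKM with DMSO. Sdhd, which encodes a membrane anchor of succinate dehydrogenase, was at 120 ± 26.5 RPKM with adjudin and 120 ± 35.7 RPKM with DMSO. These neighbours in the order did not differ beyond their spread. In mean RPKM, Aldoa (110 with adjudin, 112 with DMSO), Pgk1 (102 with adjudin, 103 with DMSO), Tpi1 (81.2 with adjudin, 76.5 with DMSO), Eno1 (67.1 with adjudin, 66.5 with DMSO), Pgam1 (63.0 with adjudin, 64.1 with DMSO) and Idh1 (62.0 with adjudin, 57.4 with DMSO) came next. The lowest was Me3, a mitochondrial NADP-linked malic enzyme gene, at 0.073 RPKM with adjudin and 0.070 RPKM with DMSO.

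**Figure D2:**
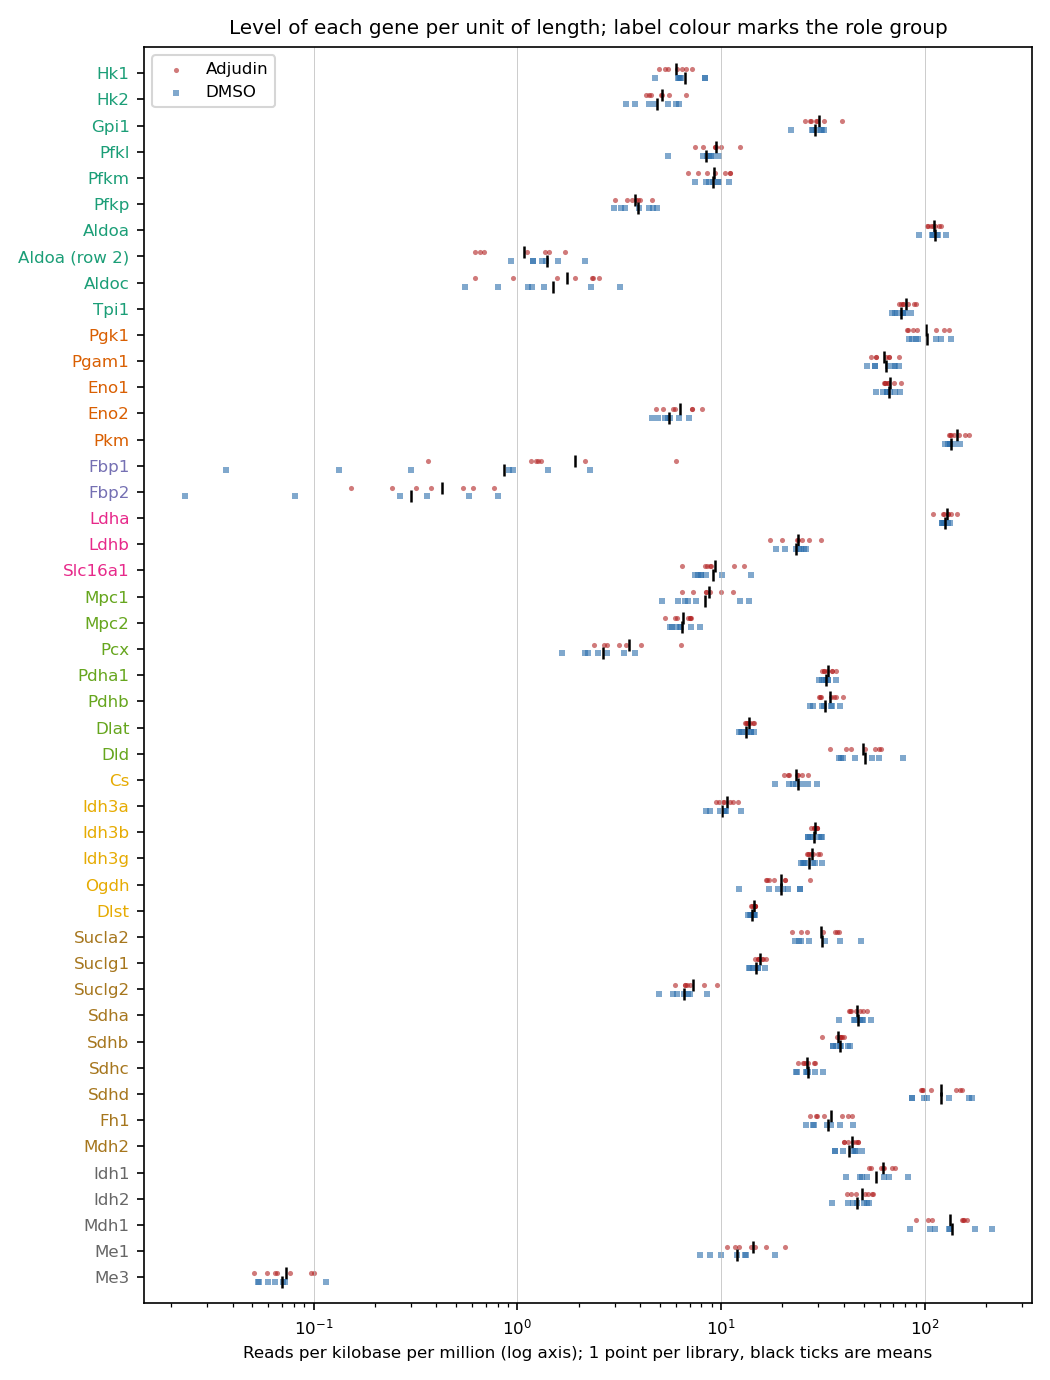
Level of each gene in RPKM on a log axis, with 1 point per library, adjudin above DMSO, black ticks for the means and label colours for the role groups as in the plot of fold changes. Pkm, Mdh1, Ldha and Sdhd were highest and Me3 lowest, and the points of the treatments overlap in every row. The single count of 0, Fbp2 in DMSO replicate 3, has no place on the log axis.

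Of the 10 rows of glucose entry and upper glycolysis, 6 had a log2 fold change above 0, and the median was 0.02. Hk1, a high-affinity hexokinase, had 42.4, 51.6 and 61.6 CPM as its lowest, median and highest value in adjudin-treated libraries, and 40.4, 53.5 and 71.5 CPM in DMSO-treated libraries. Its log2 fold change was −0.15 ± 0.11 (SE, edgeR unadjusted p = 0.210), and it was lower with adjudin in 5 of 7 pairs. The values of the treatments overlapped throughout, and the highest were DMSO replicates 5 and 6. Hk2, the insulin-responsive hexokinase of muscle and fat, had 25.4, 30.2 and 40.2 CPM with adjudin against 20.3, 28.2 and 37.1 CPM with DMSO, a log2 fold change of 0.06 ± 0.14. Its highest library was Adjudin replicate 3 and its lowest DMSO replicate 7.

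Among the remaining upper glycolytic genes, Gpi1 isomerises glucose 6-phosphate, Pfkl, Pfkm and Pfkp encode the phosphofructokinases of the committed step, Aldoa and Aldoc the aldolases, and Tpi1 the triose phosphate isomerase. Their log2 fold changes lay between −0.08 for Pfkp and 0.19 for Aldoc, apart from the second Aldoa row. Aldoa, the most abundant of the group, had 298, 321 and 348 CPM with adjudin and 273, 321 and 372 CPM with DMSO, and its log2 fold change was −0.03 ± 0.06. The second Aldoa row, a neighbouring gene model, held about 1 CPM, with a log2 fold change of −0.39 and an interval of −0.99 to 0.20. Its counts are uncertain because they could be split with the main Aldoa row.

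For the 5 genes of lower glycolysis the log2 fold changes had a median of −0.00, and all 5 intervals lay within 1.5-fold. They were Pgk1, which makes the first ATP of glycolysis, the mutase gene Pgam1, the enolase genes Eno1 and Eno2, and Pkm, which makes pyruvate. Pkm had 656, 696 and 827 CPM with adjudin against 627, 665 and 746 CPM with DMSO. Its log2 fold change was 0.08 ± 0.08 and it was higher with adjudin in 6 of 7 pairs, a frequency that 6.23% of all genes reached or exceeded. The ranges of the treatments overlapped.

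The lactate group consisted of Ldha and Ldhb, the subunits that interconvert pyruvate and lactate, and Slc16a1, the monocarboxylate transporter MCT1. Ldha had 363, 430 and 474 CPM in adjudin-treated libraries and 403, 409 and 441 CPM in DMSO-treated libraries. Both the lowest and the highest value were adjudin-treated, replicates 3 and 1. The log2 fold change was 0.01 ± 0.07, with an interval of −0.14 to 0.16. On scaled log2 CPM, 4 of 7 pairs were higher with adjudin. Pair 7 was lower with adjudin on that scale but higher in plain CPM (446 CPM with adjudin, 441 CPM with DMSO). Slc16a1 had 28.3, 39.1 and 57.1 CPM with adjudin against 33.1, 35.3 and 62.4 CPM with DMSO, a log2 fold change of 0.02 ± 0.17 with an interval of −0.36 to 0.39. Its DMSO values lay between 33.1 and 44.6 CPM in all replicates but the 7th, and without DMSO replicate 7 the log2 fold change was 0.19. Neither gene passed the test in any fit.

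**Figure D3:**
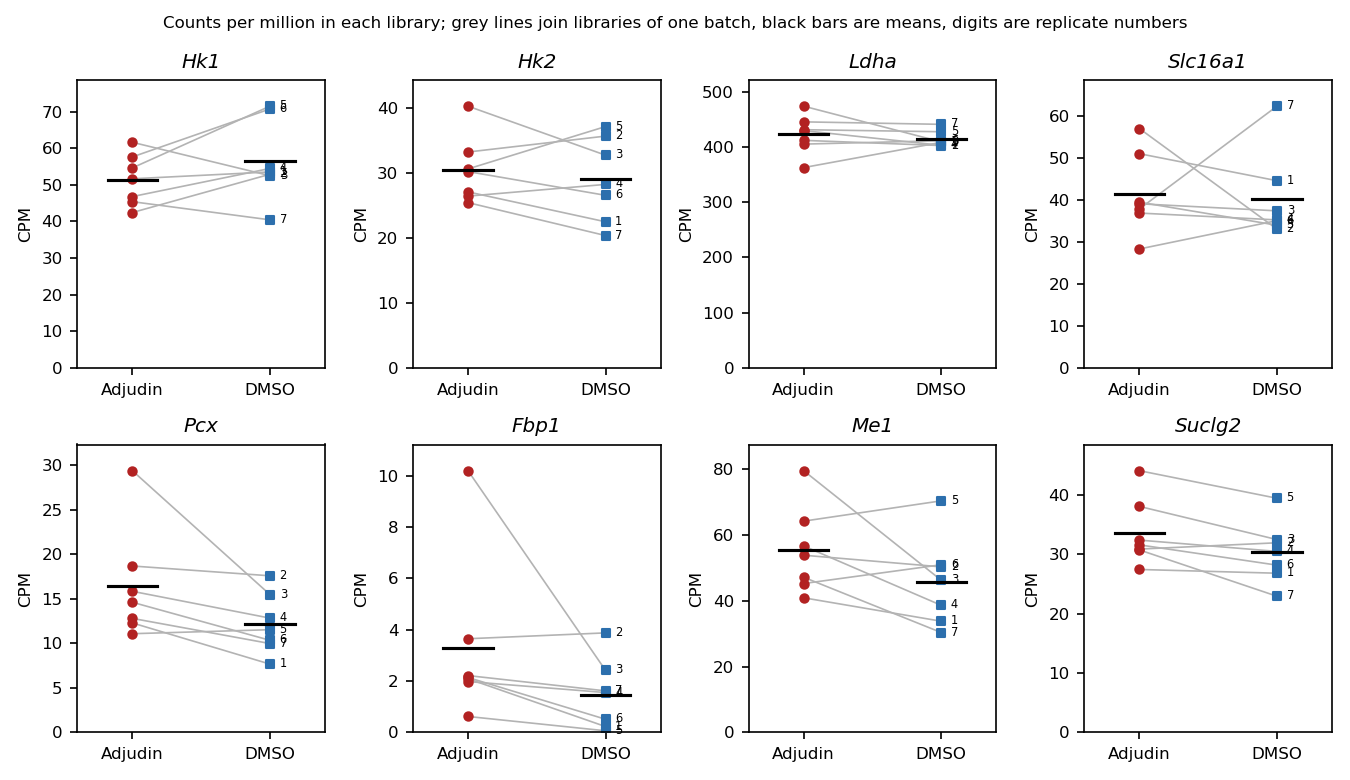
CPM of 8 genes in each library (y axis, from 0), adjudin left and DMSO right, with grey lines between libraries of 1 batch, black bars for the means of 7 libraries and digits for the replicate number. Fbp1 and Pcx are higher with adjudin in 6 of 7 pairs, with the highest values in Adjudin replicate 3, whereas the lines of Ldha and Hk2 run in both directions.

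The promoters of Ldha and Slc16a1, which mature beta cells keep low, and of Pcx, whose estimate was higher with adjudin in the blocked fit, are shown with the letters ACGTG marked. These letters are 1 form of the core of the hypoxia response element and part of the E-box CACGTG that several regulators of glycolytic genes recognise. Other forms of that core, such as GCGTG, were neither marked nor counted. The sequences are RefSeq windows of build GRCm38.p6 from 250 bases before to 50 bases after an annotated start, read 5′ to 3′ on the gene's strand, with ACGTG or its complement CACGT in capitals. Windows were available for 44 of the 46 members, and where a gene had several, the one with most matches is shown. The Ldha window is chr7:46845554-46845853 on the plus strand with 3 such places, that of Slc16a1 is chr3:104638414-104638713 on the plus strand with 2, and that of Pcx, the pyruvate carboxylase gene described next, is chr19:4510222-4510521 on the plus strand with 2.
Ldha: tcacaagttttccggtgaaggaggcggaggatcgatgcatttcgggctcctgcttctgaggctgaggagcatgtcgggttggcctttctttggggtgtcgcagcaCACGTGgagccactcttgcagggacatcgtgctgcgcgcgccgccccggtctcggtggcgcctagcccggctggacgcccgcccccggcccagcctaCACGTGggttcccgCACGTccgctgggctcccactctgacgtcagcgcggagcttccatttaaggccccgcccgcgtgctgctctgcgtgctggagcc
Slc16a1: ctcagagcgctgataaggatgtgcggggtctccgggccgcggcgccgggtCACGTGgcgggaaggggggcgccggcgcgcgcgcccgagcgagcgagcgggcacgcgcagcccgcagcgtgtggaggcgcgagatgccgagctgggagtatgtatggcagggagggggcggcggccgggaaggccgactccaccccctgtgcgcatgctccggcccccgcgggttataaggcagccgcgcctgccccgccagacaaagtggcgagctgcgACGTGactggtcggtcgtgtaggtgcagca
Pcx: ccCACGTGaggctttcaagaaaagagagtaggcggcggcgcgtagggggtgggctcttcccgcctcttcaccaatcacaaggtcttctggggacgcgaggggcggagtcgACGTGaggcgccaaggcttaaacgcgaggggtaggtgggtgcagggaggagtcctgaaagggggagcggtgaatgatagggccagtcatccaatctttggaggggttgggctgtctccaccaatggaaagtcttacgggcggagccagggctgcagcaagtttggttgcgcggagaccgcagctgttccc
Counting both strands, 25 of the 64 member windows held ACGTG (39.1%), against 6447 of all 32851 windows (19.6%). Windows of alternative starts of 1 gene can overlap, as those of Ogdh did, where every window held the motif. By gene, the motif was present in 18 of the 44 members with a window. No share by gene was computed over all genes, so the shares of windows do not show an excess among these genes. The window of Fbp1 held no such place and is not printed. A match describes the letters and no binding was measured.

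Pyruvate enters the mitochondrion through the carrier Mpc1 and Mpc2 and is then carboxylated by Pcx or oxidised by the pyruvate dehydrogenase complex of Pdha1, Pdhb, Dlat and Dld. Over these 7 genes the median of the log2 fold changes was 0.03, and 6 had intervals within 1.5-fold. Pcx, which makes oxaloacetate and is abundant in beta cells, had 11.1, 14.6 and 29.4 CPM with adjudin against 7.67, 11.5 and 17.6 CPM with DMSO. It was higher with adjudin in all pairs but number 5, the values of the treatments overlapped, and Adjudin replicate 3 stood apart from the other adjudin-treated libraries. The log2 fold change was 0.41 ± 0.22, with an interval of −0.07 to 0.88 (edgeR unadjusted p = 0.0862). With the block it was 0.38 ± 0.12 (edgeR unadjusted p = 0.00917, adjusted p = 0.745). Without Adjudin replicate 3 the unblocked value was 0.22, and without both libraries of that batch the blocked value was 0.31. Without batch 5 the blocked value was 0.46. The beta cell marker sum was highest in Adjudin replicate 3 and DMSO replicate 2, the libraries with the highest Pcx of each treatment, and its part in the difference was not tested.

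Dld, the shared dehydrogenase subunit and the most abundant gene per length of this group, had 127, 186 and 225 CPM with adjudin against 139, 167 and 289 CPM with DMSO, a log2 fold change of −0.05 ± 0.18. The highest value was DMSO replicate 7. Pdha1, Pdhb and Dlat lay between 0.01 and 0.05, Mpc1 at 0.04 and Mpc2 at −0.00 on the log2 fold change scale.

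Fbp1 and Fbp2 encode fructose 1,6-bisphosphatases, which run the opposite reaction to phosphofructokinase and serve gluconeogenesis in liver and muscle. Both were scarce. Fbp1 had 0.621, 2.14 and 10.2 CPM in adjudin-treated libraries and 0.0630, 1.55 and 3.88 CPM in DMSO-treated libraries. It was higher with adjudin in all pairs but number 2, and the ranges overlapped. The log2 fold change was 1.11 ± 0.69 with an interval of −0.36 to 2.59 (edgeR unadjusted p = 0.129). With the block it was 1.37 ± 0.43 (edgeR unadjusted p = 0.0106, adjusted p = 0.768).

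DESeq2 with the block called Fbp1 at an adjusted p of 0.0492, with a log2 fold change of 1.44 ± 0.40. When this model was refitted on the genes that passed edgeR's filter, DESeq2 gave an adjusted p of 0.0682, so the call did not hold there. Adjudin replicate 3, with the highest Fbp1, also held the hepatocyte markers given above. Without that library the log2 fold change was 0.51 in the unblocked edgeR fit, and without both libraries of its batch it was 1.25 in the blocked fit. Without both libraries of batch 5, where DMSO replicate 5 had almost no beta cell RNA, the blocked value was 1.21. Fbp1 was lowest in replicate 5 of each treatment, the libraries with the lowest beta cell sums, and highest in Adjudin replicate 3 and DMSO replicate 2, those with the highest. The part of these cell types in the result was not tested. Fbp2 had 0.224 to 1.12 CPM with adjudin and 0 to 1.18 CPM with DMSO, a log2 fold change of 0.53 with an interval of −0.91 to 1.97.

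The first span of the citric acid cycle comprised citrate synthase (Cs), the NAD-linked isocitrate dehydrogenase subunits Idh3a, Idh3b and Idh3g, and Ogdh and Dlst of the oxoglutarate dehydrogenase complex. The 6 log2 fold changes lay between −0.05 and 0.06, with 3 above 0 and all intervals within 1.5-fold. Idh3b, the most abundant per length, had 94.9, 98.7 and 102 CPM with adjudin against 91.1, 96.4 and 107 CPM with DMSO, a log2 fold change of −0.00 ± 0.05. It varied little between libraries of either treatment. Dlst varied least of all 47 rows, with an SD of 0.04 on the log2 scale over 14 libraries.

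The second span comprised succinyl-CoA ligase (Sucla2, Suclg1 and Suclg2), succinate dehydrogenase (Sdha, Sdhb, Sdhc and Sdhd), fumarase (Fh1) and mitochondrial malate dehydrogenase (Mdh2). Over these 9 genes the median of the log2 fold changes was −0.02, and all intervals lay within 1.5-fold. Sdhd, the most abundant per length, had 117, 131 and 188 CPM with adjudin against 106, 126 and 209 CPM with DMSO, a log2 fold change of −0.02 ± 0.19. Suclg2, the GTP-forming subunit, had 27.4, 31.5 and 44.0 CPM with adjudin against 22.9, 30.5 and 39.4 CPM with DMSO, and was higher with adjudin in all pairs but number 2. Its log2 fold change was 0.13 ± 0.12, and with the block edgeR gave 0.13 ± 0.06 (unadjusted p = 0.0486, adjusted p = 0.883). The unblocked value was 0.06 without Adjudin replicate 5 and 0.20 without DMSO replicate 5. The treatments overlapped in both genes.

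The NADP-linked and cytosolic enzymes were Idh1, Idh2, Mdh1, Me1 and Me3, which exchange reducing equivalents and carbon with the cycle. Me1, the cytosolic malic enzyme that yields NADPH, had 40.9, 53.8 and 79.5 CPM with adjudin against 30.3, 46.2 and 70.3 CPM with DMSO. It was higher with adjudin in 5 of 7 pairs. The estimate on the log2 fold change scale was 0.26 ± 0.17 (edgeR unadjusted p = 0.154). With the block the value was 0.28 ± 0.11 (edgeR unadjusted p = 0.0343, adjusted p = 0.868). Mdh1 had 232, 392 and 414 CPM with adjudin against 217, 337 and 546 CPM with DMSO, a log2 fold change of −0.07 ± 0.21. Its spread within each treatment was wide, with DMSO replicate 7 highest and DMSO replicate 5 lowest.

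Shares of 1 gene within its enzyme family do not depend on how libraries are scaled, and 13 such shares were compared by exact two-sided permutation of the 14 labels, from reads per kilobase. None passed an adjusted p of 0.05. Ldha made up 84.3% ± 2.17 of Ldha and Ldhb with adjudin and 84.4% ± 1.39 with DMSO (SD, n = 7 each, exact permutation p = 0.929, adjusted p = 0.929). The Me1 share of the malic enzymes was 39.5% ± 5.70 with adjudin and 32.1% ± 6.16 with DMSO (exact permutation p = 0.0385, adjusted p = 0.500), and it was higher with adjudin in 7 of 7 pairs. Me2, the NAD-linked malic enzyme in the denominator, was lower with adjudin in 7 of 7 pairs on scaled log2 CPM, as 0.854% of all genes were. In plain CPM, Me2 was higher with adjudin in pair 3 (56.5 CPM with adjudin, 54.4 CPM with DMSO). The Hk1 share of Hk1 and Hk2 was 54.2% ± 3.60 with adjudin and 57.8% ± 4.95 with DMSO (exact permutation p = 0.157, adjusted p = 0.686), and it was lower with adjudin in 7 of 7 pairs. For both shares the exact sign-flip p over pairs was 0.0156, the smallest that 7 pairs can give, and its adjusted value over 13 shares was 0.102. The ranges of the treatments overlapped in all 13 shares.

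**Figure D4:**
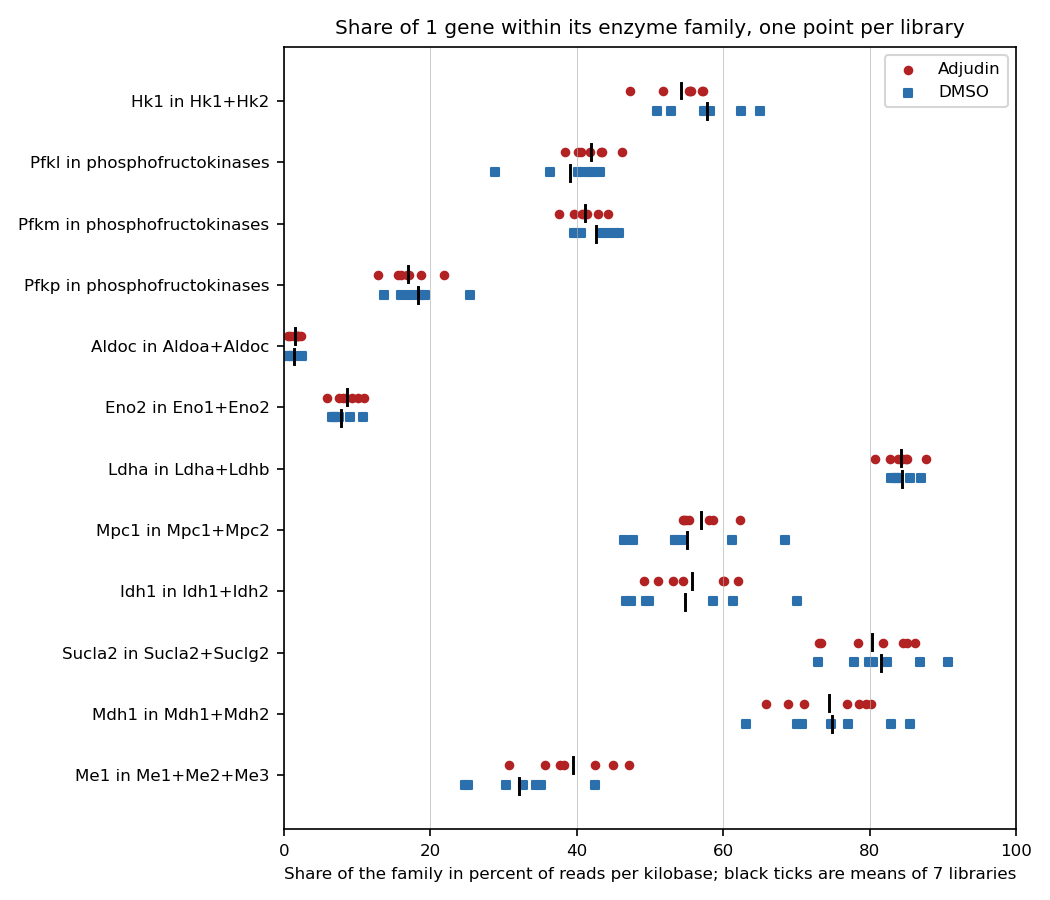
Share of 1 gene within its family in percent of reads per kilobase (x axis) for the shares named on the y axis, with 1 point per library, adjudin above DMSO, and black ticks for the means of 7 libraries. The Me1 share averages 39.5% with adjudin and 32.1% with DMSO, and the Ldha share 84.3% with adjudin and 84.4% with DMSO.

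Another 49 genes of glucose transport, glycolysis and its regulators, pyruvate dehydrogenase control and the mitochondrial shuttles were examined in the same fits, and 48 of them could be tested. Their median log2 fold change was 0.08 and 32 of the 48 were above 0, against 45.3% of all genes tested. The unblocked edgeR fit called 0 of them. At an unadjusted p of 0.05 edgeR counted 1 higher gene, Tigar, a bisphosphatase that lowers glycolytic flux (log2 fold change 0.32 ± 0.13, edgeR unadjusted p = 0.0261), and 1 lower gene, Me2 (−0.20 ± 0.07, edgeR unadjusted p = 0.0114). Of all genes, 1.25% were higher and 1.01% lower at that threshold in the unblocked fit. With the block edgeR counted 9 of the 48 genes higher and 2 lower at an unadjusted p of 0.05. Of all genes, 3.25% were higher and 2.38% lower in the blocked fit. It called 0 of the 48. The higher genes included Slc2a2, G6pc2, Tigar, Bpgm, Ldhd, Gpd1 and Pdk4, and the lower genes were Me2 and Pfkfb4.

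DESeq2 with the block called 4 of these genes, all higher with adjudin, against 0.624% of the 18122 genes it gave an adjusted p. They included Slc2a2, a glucose transporter of beta cells (adjusted p = 0.0478), and Bpgm, the bisphosphoglycerate mutase gene (adjusted p = 0.0228). Bpgm had 23.2, 33.8 and 38.6 CPM with adjudin against 19.3, 29.2 and 32.8 CPM with DMSO and was higher in 7 of 7 pairs, as 0.950% of all genes were. Slc2a2 was also higher in 7 of 7 pairs. It was lowest in replicate 5 of each treatment, where the beta cell sums were lowest. Slc2a2 is itself 1 of the 8 markers in that sum, and the part of beta cell content was not tested. On the genes past edgeR's filter, Bpgm was called and Slc2a2 was not.

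Most of these genes varied less between libraries than the median gene tested, without matching for level. The median SD of log2 CPM over the 14 libraries was 0.22 for the 47 rows and 0.31 for all genes tested, and 34 of the 47 rows lay below that median of all genes. Across the 42 rows with at least 10 CPM, the deviation of a gene from its mean correlated with the GC content of its longest transcript, with negative r in all 6 libraries of batches 1, 2 and 7 and positive r in all 6 libraries of batches 3, 5 and 6. In batch 4 the libraries differed, with an r of −0.004 in Adjudin replicate 4 and 0.288 in DMSO replicate 4. These r are descriptions across genes of 1 library and are not independent. Over all tested genes the slope on GC ran from −0.11 to 0.17 log2 units per 10 percentage points in adjudin-treated libraries and from −0.23 to 0.15 in DMSO-treated libraries. Genes of low GC such as Dld, Sucla2 and Mdh1 were high in DMSO replicate 7 and low in Adjudin replicate 3 and DMSO replicate 5. The same held for Sdhd (GC 49.4%) and Pgk1 (49.7%), although the median GC of all tested genes was 49.5%. The pattern was therefore not confined to genes of low GC. With GC as an offset per library, the SE of Dld was 0.11, against 0.18 without the offset, and that of Sucla2 was 0.14, against 0.19 without it, whereas that of Suclg2 was 0.14, against 0.12 without it. The SE changed less for Sdhd (0.18 with the offset, 0.19 without it), Pgk1 (0.14 with, 0.15 without) and Mdh1 (0.18 with, 0.21 without). With the offset edgeR still called 0 rows. With this offset and the block, Hk1, Fbp1, Pcx and Me1 had an unadjusted p under 0.05, and Hk1 was the lower one (log2 fold change −0.18, edgeR unadjusted p = 0.0275).

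**Figure D5:**
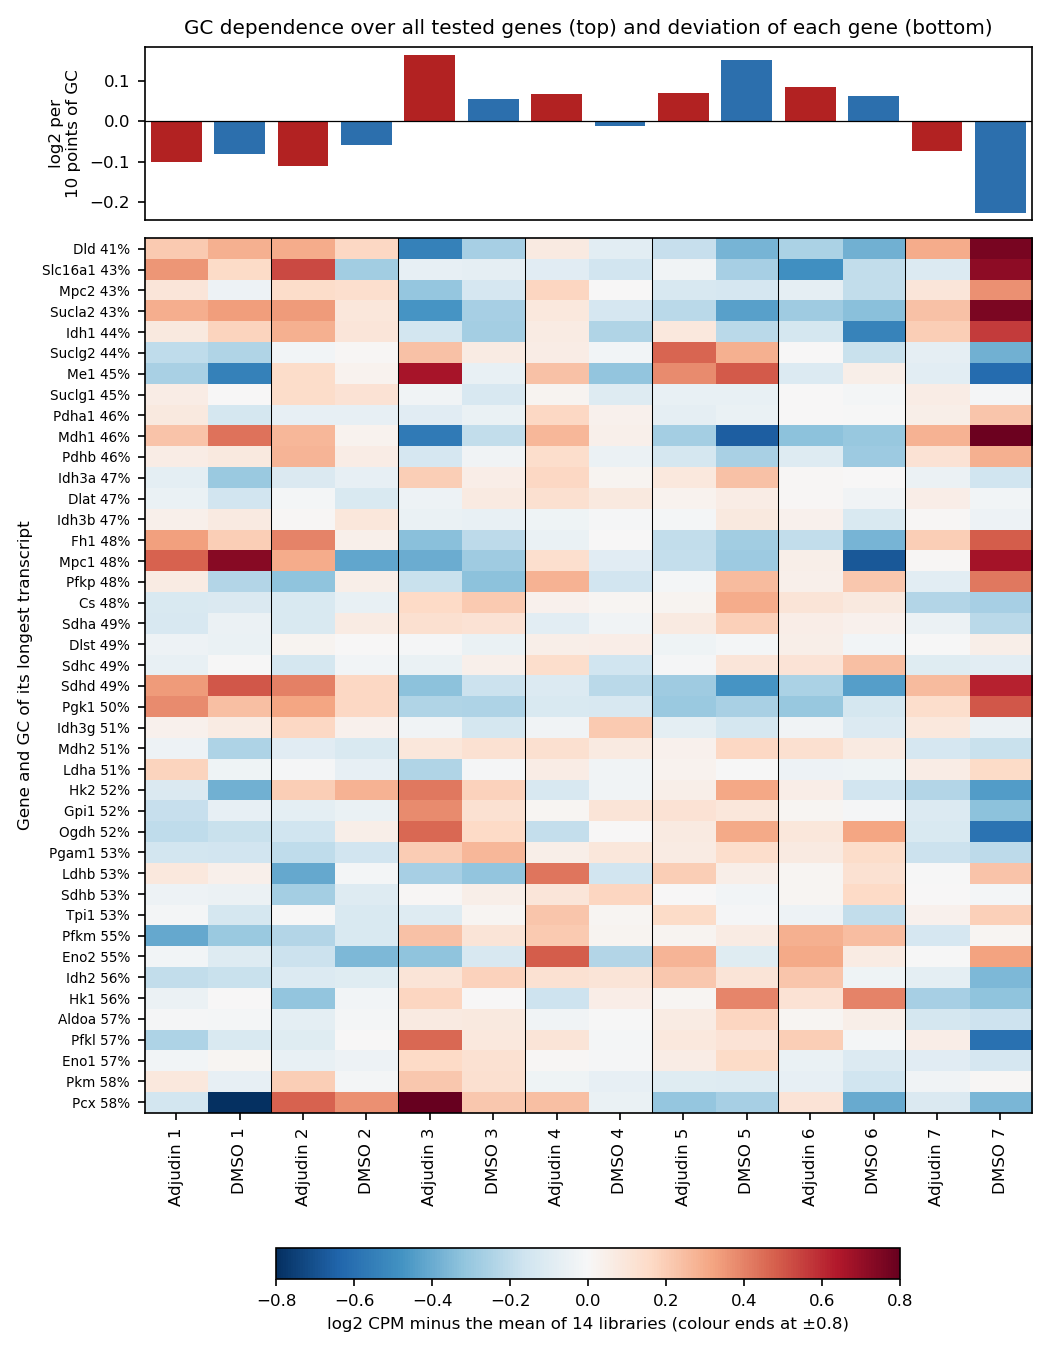
Top, slope of log2 CPM on transcript GC over all tested genes for each library, in log2 units per 10 percentage points. Bottom, log2 CPM minus the mean of 14 libraries for the 42 rows with at least 10 CPM (colour, ending at ±0.8), rows ordered by GC and libraries by batch with adjudin left of DMSO. Dld, Sucla2 and Mdh1 are high in batches 1, 2 and 7 and low in batches 3, 5 and 6, whereas Suclg2 and Me1, also of low GC, do not follow this pattern. Sdhd and Pgk1, near the median GC of all tested genes, do follow it.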

How the data were processed

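The authors deposited raw counts of reads per gene, one column for each of the 14 libraries. According to the methods, HISAT2 2.0.5 aligned the paired-end reads to GRCm38/mm10, and featureCounts 1.5.0-p3 counted them. Annotation release, strand setting and the handling of reads with several matches were not given in the sources used here. Therefore counts of near-identical or overlapping genes are uncertain.

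Rows were filtered with edgeR's filterByExpr (minimum count 10), which kept 18732 genes with 99.9% of the counts. Counts were scaled by trimmed means of M-values and tested with edgeR 4.0.16 in R 4.3.3 (robust quasi-likelihood F test, two-sided, Benjamini-Hochberg over all genes tested). DESeq2 1.42.0 and limma-voom (limma 3.58.1) were alternatives, with and without the replicate block, as were other scalings, a GC offset (spline with 4 degrees of freedom) and fits that left out a library or a pair. The GC offset, the blocked fit without each pair and DESeq2 on the filtered genes were chosen after seeing the data. CPM used library totals, and RPKM the gene lengths in the table. Pair counts of single genes used log2 CPM after the scaling by trimmed means, and those of marker sums used plain CPM. Scripts were tested on simulated data.

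Each replicate number belongs to 1 batch in the labels and was therefore treated as a pair. Across genes, the deviations of paired libraries from their treatment mean had an r of −0.14 to 0.45 (mean 0.25), against a mean of −0.04 for unpaired libraries. No 2 libraries matched within sampling noise (over 91 pairs, chi-square per degree of freedom was at least 22.7). Within 13 libraries 1 count equals 0.0271 to 0.0378 CPM, and 0.00919 CPM in DMSO replicate 7.

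Every member is named. For some members the lowest, median and highest CPM per treatment are given. These are the members called by edgeR or DESeq2 or at an unadjusted p under 0.05 in edgeR's fits. They also include Hk1, Hk2, Ldha and Slc16a1, and the most abundant member per length of each role group. Other pathway genes are named by the same calls. Some of them are not reported here. The members and lists were chosen with earlier results of these data known.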

Additional observations from a re-analysis of the deposited data

Results flagged for a closer look

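Among 76 groups of 7 libraries examined, 3 had a library whose gap to its nearest neighbour was large beside the range of the group, and chance gives this in about 1 in 20 groups. Fbp1 was at 10.2 CPM in Adjudin replicate 3, where the next adjudin-treated library had 3.65 CPM. Pcx was at 29.4 CPM in the same library, where the next had 18.7 CPM. Slc16a1 was at 62.4 CPM in DMSO replicate 7, the deepest library, where the next DMSO-treated library had 44.6 CPM.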

How the results depend on the processing

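The number of the 47 rows past an adjusted p of 0.05 was 0 in all alternatives except DESeq2 with the replicate block, which called 1 (Fbp1, log2 fold change 1.44). The number at an unadjusted p under 0.05, 0 in the unblocked edgeR fit, was 4 with the replicate block in edgeR, in limma-voom, with the GC offset and in DESeq2 after edgeR's filter, and 3 in DESeq2 with the block on all rows with a count. It was 0 to 2 when single libraries were left out (2 without DMSO replicate 2, and 1 without Adjudin replicate 5 or DMSO replicate 5) and 2 to 4 when 1 pair was left out of the blocked edgeR fit. Of the other pathway genes, blocked DESeq2 called 4, and 3 after edgeR's filter, against 0 without the block. At an unadjusted p under 0.05 there were 11 with the block in edgeR, 13 in DESeq2 and 14 in DESeq2 after the filter, against 2 in edgeR and 3 in DESeq2 without the block. Over all genes the share was 5.63% in edgeR and 3.67% in DESeq2 with the block. Without the block it was 2.26% in edgeR and 2.17% in DESeq2. The edgeR shares are over 18732 genes and the DESeq2 shares over 38028 genes with a count. The DESeq2 shares thus include sparse genes and are no like background for these counts. Over 41 alternatives the log2 fold change of Fbp1 ranged from 0.51 to 1.67 and that of Pcx from 0.22 to 0.51, and both were lowest without Adjudin replicate 3. Hk1 stayed between −0.20 and −0.09, Me1 between 0.17 and 0.39 and Suclg2 between 0.06 and 0.20. Estimates near 0 changed sign in some alternatives: Hk2 in 1, Ldha in 5, Dld in 5, Mdh1 in 5, Slc16a1 in 12, Sdhd in 19 and Idh3b in 20. The block changed no other call.

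Precision was lowest for Fbp1 and Fbp2, which varied most between libraries. The beta cell content differed widely between libraries. The p-values of tests without the block measure the spread between pooled preparations. Those of the blocked fits and sign flips measure the spread of the differences within pairs of such preparations.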

Other observations

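Gapdh, singled out after its values were seen, was at 4.44 to 8.07 CPM in 5 adjudin-treated libraries and 31.6 and 71.8 CPM in replicates 2 and 7. In DMSO-treated libraries it was at 4.33 to 7.32 CPM in 5 and 48.2 and 34.8 CPM in replicates 3 and 6. The libraries thus fell at 2 levels within each treatment. These levels are far below those of the neighbouring steps, Tpi1 and Pgk1, and near-identical copies of Gapdh make its counts uncertain.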
